A study of Rattus norvegicus with 8 samples.

Results

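The collagens described here build or decorate the thin networks around the thick collagen fibres of the annulus fibrosus (AF), the outer ring of the intervertebral disc. They were chosen by gene symbol: the 3 main chains of collagen VI (Col6a1, Col6a2, Col6a3) together with Col8a1, Col12a1, Col14a1, Col15a1, Col16a1, Col18a1 and Col19a1. All 10 had a row among the 31699 rows of the deposited matrix, and all 10 were among the 13103 genes with a mean of at least 1 TPM (a transcript level per transcript length, scaled to the same total in each sample) that were tested.

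The data are RNA-seq of rat annulus fibrosus cells (AFCs) under cyclic mechanical stretch (CMS), which induced apoptosis in these cells. The AFCs came from Sprague Dawley rats, and each isolation combined AF tissue from 8 animals. There were 4 samples with the control lentivirus pLVX-shRNA-Puro (Lv-Ctrl) and 4 samples with pLVX-shRNA-Puro-Piezo1 (Lv-Piezo1), a vector carrying a short hairpin RNA against the mechanosensitive ion channel Piezo1. Both groups met lentivirus during 24 h, with 20 infectious units per cell, and were then stretched for 36 h at 0.5 Hz with up to 20% elongation. All 8 samples were therefore stretched and transduced, in culture medium with 10% serum, and no unstretched or untransduced sample was compared. The comparison asks which transcripts differ when Piezo1 is targeted in stretched AFCs. The paper describes 4 biological repeats that received Lv-Ctrl or Lv-Piezo1 under stretch, and it counts every isolation as its own repeat. The labels do not tie a sample to an isolation or say whether the groups share isolations, so the p-values measure the spread between these samples.

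Collagen VI is assembled from 3 different chains into tetramers that join end to end as beaded microfilaments, and in the disc these filaments surround the cells and link them to the matrix. The fibril-associated collagens XII, XIV, XVI and XIX have interrupted triple helices. Collagens XII and XIV sit on the surface of collagen I fibrils, where they bridge neighbouring fibrils and influence their spacing. Collagen VIII is a short-chain collagen that forms networks, and collagens XV and XVIII are multiplexins of basement membrane zones, so these last 3 are neither microfibrillar nor fibril-associated in the strict sense.

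The targeted transcript went against the label. Piezo1 (ENSRNOG00000056786) was 30.1 ± 2.67 TPM (SD, n = 4) in Lv-Ctrl and 39.4 ± 1.75 TPM (SD, n = 4) in the samples labelled Lv-Piezo1, a log2 fold change of 0.38 with a standard error (SE) of 0.06 (limma adjusted p = 8.6e-04). The log2 fold change was 0.22 under median-ratio scaling of the samples (limma adjusted p = 0.0028). The transcript was thus higher, not lower, in the samples labelled as carrying the hairpin, and the group names are used below as labels only. The paper reports that knockdown by this vector was verified, in a check whose values are not in this matrix.

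The matrix holds TPM without counts, so the sequencing depth is unknown and precision rests on the spread of the samples. Correlations of log2(TPM + 1) were 0.973 to 0.983 within groups and 0.939 to 0.945 between them. Lv-Ctrl 3 was the lowest Lv-Ctrl sample for 10 of the 10 collagens, with a median log2 deviation of -0.18 from the group mean against -0.06 over all tested genes, and Lv-Piezo1 4 was the highest Lv-Piezo1 sample for 9 of them, so results that turn on either are given without it. The 10 listed AF and fibroblast markers summed to 7402 to 8315 TPM in Lv-Ctrl and 11169 to 11932 TPM in Lv-Piezo1, a sum made up mostly of Col1a1 and Col1a2. By gene these markers split, since of 9 tested 1 was called higher (Thbs4) and 2 lower (Dcn and Pdgfra), and 5 were higher and 3 lower by adjusted p. Over all tested genes, 4.91% were called higher and 2.76% lower, and by adjusted p 41.9% were higher and 16.3% lower. The tendon and AF marker Tnmd stayed below 1 TPM. The 12 listed smooth muscle and pericyte markers summed to 828 to 863 TPM in Lv-Ctrl and 4604 to 4773 TPM in Lv-Piezo1, with 6 called higher, 2 called lower (Kcnj8 and Abcc9) and a median log2 fold change of 2.32 over the 10 tested. One of them, Rgs5, was below 1 TPM throughout. All 6 endothelial markers were below 1 TPM in every sample. The 6 macrophage and leukocyte markers summed to at most 2.30 TPM in Lv-Ctrl and 13.9 TPM in Lv-Piezo1, with Adgre1 and Cd163 listed at 0 and Cd68 alone reaching 1 TPM. The 3 epithelial markers summed to at most 0.53 TPM, with Krt5 and Cdh1 listed at 0. The 7 chondrocyte and nucleus pulposus markers summed to 38.4 to 44.4 TPM in Lv-Ctrl and 71.8 to 79.8 TPM in Lv-Piezo1, with Tbxt and Shh listed at 0. Of the 4 of these 7 that were tested, Cd24 was called higher and Acan was higher by adjusted p alone. Sox9 and Krt8 did not pass (limma adjusted p = 0.94 and 0.12), and Col2a1 was below 1 TPM in every sample. In bulk samples fewer cells of a type and less RNA per cell cannot be told apart, and the part of the muscle marker difference in the collagen values was not tested.

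Among the 10 collagens, Col12a1 and Col19a1 fell, and no member rose by the call used here, an adjusted p under 0.05 together with a log2 fold change of 1 or more in size. Over all tested genes 7.67% were called, 4.91% as higher and 2.76% as lower in Lv-Piezo1. With the adjusted p alone, 4 of the 10 were higher (Col6a1, Col6a2, Col8a1 and Col15a1) and 4 were lower (Col12a1, Col16a1, Col18a1 and Col19a1), against a background of 58.2% of all tested genes, 41.9% higher and 16.3% lower. The values of the groups did not overlap for 8 of the 10 collagens, against 54.2% of all tested genes. The median log2 fold change was -0.09 over the 10 collagens and 0.14 over all tested genes. That overall shift of 0.14 became -0.0046 under median-ratio scaling of the samples, which largely removes such a shift by construction.

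**Figure D1:**
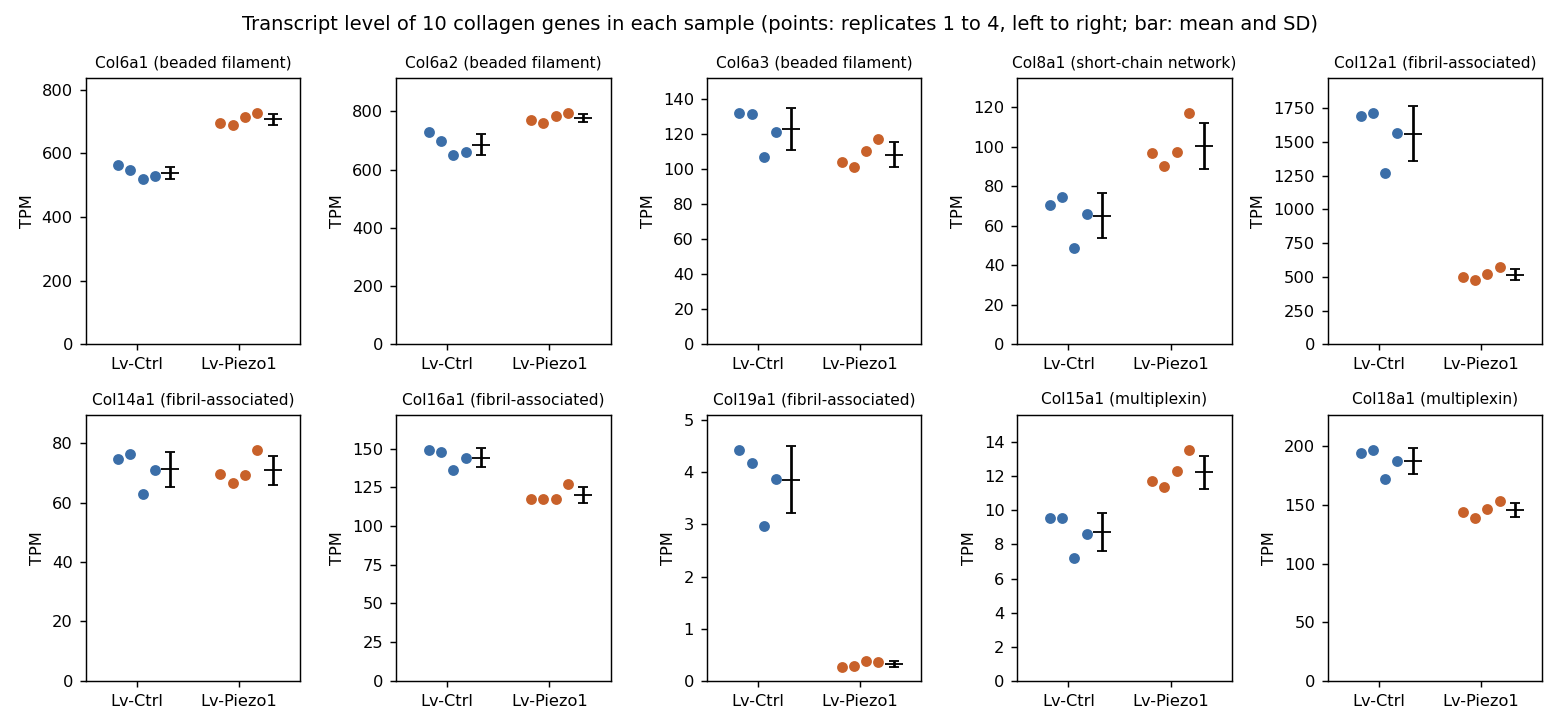
TPM of the 10 collagen genes in each sample, with 1 panel per gene and axes starting at 0. Points are the 4 Lv-Ctrl and 4 Lv-Piezo1 samples, and the bar and whiskers are the group mean and SD. Col12a1 and Col19a1 drop far below the Lv-Ctrl samples, whereas the groups of Col6a3 and Col14a1 overlap.

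The upstream sequences of 3 of the genes are shown to set those with the highest and lowest log2 fold change side by side with an abundant chain. Promoter windows of 250 bases ending at the base before the transcription start (RefSeq, rat assembly GRCr8) were found for 7 of the 10 genes. The windows printed are those of Col6a1, an abundant chain that was higher, of Col8a1, the collagen with the highest log2 fold change among the 10, and of Col19a1, the collagen with the lowest. They lie at chr20:11905440-11905689 (plus strand), chr11:56246532-56246781 (plus strand) and chr9:34518258-34518507 (minus strand), and each is written 5′ to 3′ on the strand of its gene. Capitals mark TGANTCA (the AP-1 type site) and GGGCGG (the GC box of Sp factors), the latter read on either strand.
Col6a1: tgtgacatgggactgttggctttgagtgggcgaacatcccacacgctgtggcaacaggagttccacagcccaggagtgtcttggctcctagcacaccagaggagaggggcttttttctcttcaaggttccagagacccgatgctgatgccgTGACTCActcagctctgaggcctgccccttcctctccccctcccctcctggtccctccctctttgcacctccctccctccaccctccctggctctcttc
Col8a1: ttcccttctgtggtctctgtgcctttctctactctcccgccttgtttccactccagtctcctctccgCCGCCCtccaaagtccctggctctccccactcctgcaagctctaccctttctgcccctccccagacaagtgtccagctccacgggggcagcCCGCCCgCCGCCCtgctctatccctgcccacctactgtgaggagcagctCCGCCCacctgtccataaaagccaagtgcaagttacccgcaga
Col19a1: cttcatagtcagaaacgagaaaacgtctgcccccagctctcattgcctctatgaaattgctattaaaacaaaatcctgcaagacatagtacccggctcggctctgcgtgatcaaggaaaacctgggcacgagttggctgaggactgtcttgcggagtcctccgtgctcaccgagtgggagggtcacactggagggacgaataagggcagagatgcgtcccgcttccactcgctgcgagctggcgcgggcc

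The Col6a1 window holds 1 TGANTCA, 99 to 93 bases before the start, a motif present in 6.34% of the 33469 windows of the same length in the genome. The Col8a1 window holds GGGCGG 4 times, and at least 1 copy was present in 3 of the 7 collagen windows (Col8a1, Col16a1 and Col18a1) and in 30.5% of all windows. The Col19a1 window holds none of the motifs searched. CAGCTG was found in the Col16a1 window alone among the 7 and in 12% of all windows. TATAAA (12.9% of all windows), GGAATG (12.1%) and the CArG box (1.5%) were in none of the 7. Both strands were searched, no matches overlapped another motif in the printed windows, and the motifs were chosen after the windows had been read. A match describes letters, not binding, and these data hold no measurement of binding.

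The collagen VI chains were abundant in both groups and did not change in equal measure. Col6a1 (ENSRNOG00000001249), which encodes the alpha1 chain, was 562, 548, 521 and 528 TPM in the Lv-Ctrl samples and 697, 688, 715 and 727 TPM in the Lv-Piezo1 samples. Every Lv-Piezo1 sample was above every Lv-Ctrl sample, at 707 ± 17.5 against 540 ± 18.9 TPM (SD, n = 4 each). The log2 fold change was 0.39 (SE 0.03, limma adjusted p = 1.1e-05), and it stayed positive at 0.23 under median-ratio scaling (adjusted p = 1.3e-04).

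Col6a2 (ENSRNOG00000001254), the alpha2 chain encoded next to Col6a1, was 729, 698, 651 and 660 TPM in Lv-Ctrl and 770, 760, 784 and 794 TPM in Lv-Piezo1. These ranges did not overlap either, but the gap was small, with means of 685 ± 36 and 777 ± 15.0 TPM. The log2 fold change of 0.18 (SE 0.04, limma adjusted p = 0.0033) is close to the shift of all genes, and median-ratio scaling reduced it to 0.02 (adjusted p = 0.59).

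Col6a3 (ENSRNOG00000019648) encodes the largest chain of collagen VI, from whose end the fragment endotrophin is cut. Its values were 132, 132, 107 and 121 TPM in Lv-Ctrl and 104, 101, 110 and 117 TPM in Lv-Piezo1. The groups overlapped because Lv-Ctrl 3 lay among the Lv-Piezo1 samples, and the means were 123 ± 12 and 108 ± 7.14 TPM. The log2 fold change was -0.18 (SE 0.07, limma adjusted p = 0.066, exact permutation p = 0.11). It became -0.34 under median-ratio scaling (adjusted p = 6.1e-04), -0.24 under quantile normalization (adjusted p = 0.017), -0.24 without Lv-Ctrl 3 (adjusted p = 0.0064) and -0.22 without Lv-Piezo1 4 (adjusted p = 0.042), so its side of the threshold depended on scaling and on single samples while its direction did not.

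Because the ratio of 2 genes in a sample does not depend on how that sample was scaled, the chain ratios were compared as well. TPM is a level per transcript length, so these ratios compare transcript numbers. The Col6a2 to Col6a1 ratio was 1.27 ± 0.0223 in Lv-Ctrl and 1.10 ± 0.00616 in Lv-Piezo1, and the Col6a3 to Col6a1 ratio was 0.228 ± 0.0157 and 0.153 ± 0.00634 (SD, n = 4 each). In log2 terms these ratios differed by -0.21 and -0.57. Neither ratio overlapped between the groups, and both reached an exact two-sided permutation p of 0.029, the smallest that 4 against 4 samples allow, which is 0.032 after adjustment over the 9 ratios computed. Relative to the alpha1 chain, therefore, the alpha2 and alpha3 transcripts were lower in Lv-Piezo1.

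**Figure D2:**
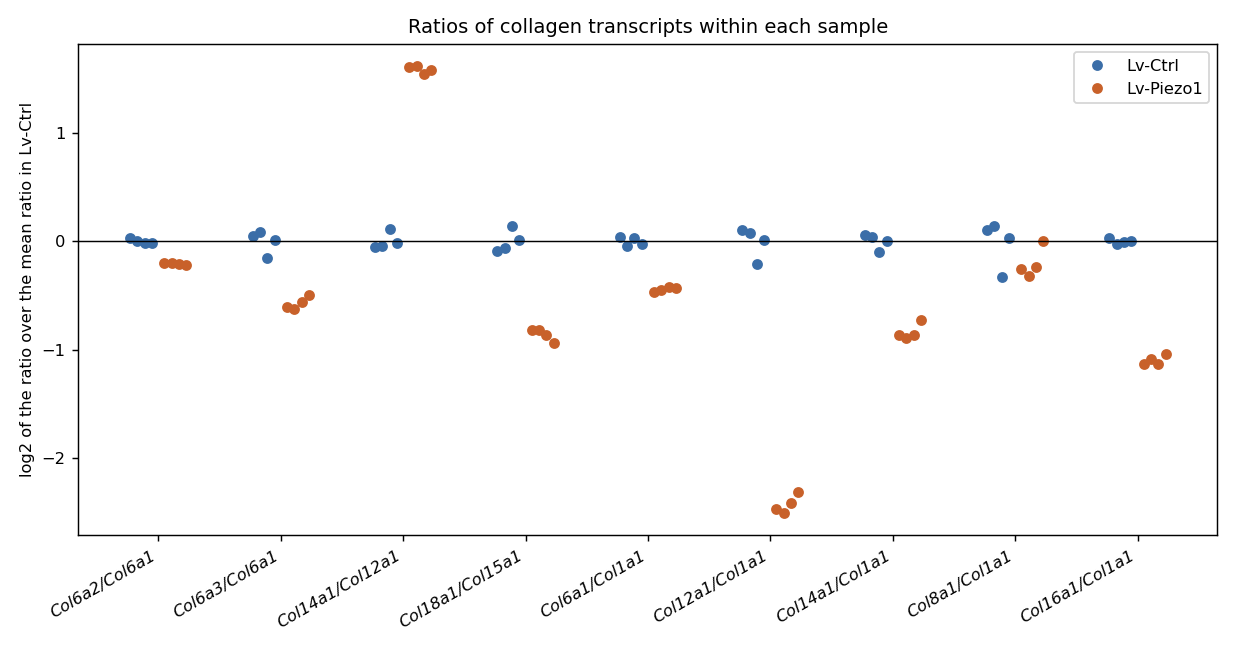
Log2 of the TPM ratio of 9 pairs of collagen genes (horizontal axis) in each sample, relative to the mean ratio in Lv-Ctrl, which lies at 0. Each point is 1 of the 4 Lv-Ctrl or 4 Lv-Piezo1 samples. The groups are separate in 8 of the 9 ratios, and those of Col8a1 to Col1a1 overlap.

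Col12a1 (ENSRNOG00000058470), the chain of the homotrimeric fibril-associated collagen XII, was the most abundant of the 10 in Lv-Ctrl and showed the largest drop in TPM. It was 1690, 1714, 1272 and 1566 TPM in the Lv-Ctrl samples and 501, 476, 520 and 569 TPM in the Lv-Piezo1 samples. The lowest Lv-Ctrl value, in Lv-Ctrl 3, was still well above the highest Lv-Piezo1 value. The mean fell from 1560 ± 203 to 517 ± 39.6 TPM, which is 3.02-fold lower, with a log2 fold change of -1.59 (SE 0.10, limma adjusted p = 1.2e-06). Over the 16 alternatives run for this gene the log2 fold change ranged from -1.75 to -1.51, and only 1.21% of all tested genes had a lower one.

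Col14a1 (ENSRNOG00000026415), the chain of collagen XIV, the close relative of collagen XII, did not pass the test. Its values were 74.6, 76.3, 62.9 and 71.0 TPM in Lv-Ctrl and 69.7, 66.7, 69.3 and 77.8 TPM in Lv-Piezo1, and the groups overlapped throughout. The means were 71.2 ± 5.97 and 70.9 ± 4.80 TPM, with a log2 fold change of -0.0052 (SE 0.07, limma adjusted p = 0.96). Median-ratio scaling moved it to -0.17 (adjusted p = 0.017). The Col14a1 to Col12a1 ratio was 3.00-fold higher in Lv-Piezo1, at 0.137 ± 0.00312 against 0.0459 ± 0.00243 (exact permutation p = 0.029, adjusted 0.032), the largest log2 difference (1.58) of the 4 ratios computed within the 10.

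Col16a1 (ENSRNOG00000031475) encodes collagen XVI, a fibril-associated collagen of fibrillar and microfibrillar networks. It was 149, 148, 136 and 144 TPM in Lv-Ctrl and 118, 118, 117 and 127 TPM in Lv-Piezo1, without overlap. The means were 144 ± 6.0 and 120 ± 4.89 TPM, and the log2 fold change was -0.26 (SE 0.04, limma adjusted p = 5.5e-04), or -0.43 under median-ratio scaling.

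Col19a1 (ENSRNOG00000012759), the chain of the rare collagen XIX, had the lowest level and the largest relative change of the 10. It was 4.43, 4.17, 2.96 and 3.87 TPM in Lv-Ctrl and 0.27, 0.29, 0.38 and 0.36 TPM in Lv-Piezo1, all of the latter below 1 TPM. The mean fell from 3.86 ± 0.641 to 0.325 ± 0.0532 TPM, 11.9-fold lower in mean TPM. On the log2(TPM + 1) scale, which understates changes of low genes, the fold change was -1.87 (SE 0.12, limma adjusted p = 2.1e-06), and with a pseudocount of 0.1 it was -3.21. A lower log2 fold change was found in 0.79% of tested genes. The mean of Col19a1 over all 8 samples was 2.09 TPM, so it passed the minimum of 1 TPM only through the Lv-Ctrl samples, where it was high. With no minimum it was still called (limma adjusted p = 4.4e-06). With a minimum mean of 5 TPM this gene is not tested at all.

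Col8a1 (ENSRNOG00000039668), a chain of the short-chain collagen VIII, had the highest log2 fold change of the 10 but stayed below the fold limit. Its values were 70.6, 74.8, 48.8 and 66.0 TPM in Lv-Ctrl and 97.1, 90.2, 97.5 and 117 TPM in Lv-Piezo1, without overlap. The log2 fold change was 0.63 (SE 0.13, limma adjusted p = 0.0028), or 0.47 with median-ratio scaling, and 87.3% of tested genes had a lower one. Its partner chain Col8a2 was also higher, at 210, 205, 193 and 194 TPM in Lv-Ctrl and 227, 230, 231 and 230 TPM in Lv-Piezo1, with a smaller log2 fold change of 0.20 (adjusted p = 9.2e-04).

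The multiplexins moved in opposite directions. Col15a1 (ENSRNOG00000060381), the core protein gene of collagen XV, was 9.54, 9.53, 7.22 and 8.61 TPM in Lv-Ctrl and 11.7, 11.4, 12.3 and 13.6 TPM in Lv-Piezo1. These values did not overlap, with a log2 fold change of 0.45 (SE 0.09, limma adjusted p = 0.0024), which was 0.30 with median-ratio scaling and 0.27 with quantile normalization (adjusted p = 0.0058 and 0.0062). Col18a1 (ENSRNOG00000001229), whose protein releases the fragment endostatin, was 194, 197, 172 and 187 TPM in Lv-Ctrl and 144, 139, 147 and 153 TPM in Lv-Piezo1.

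Col18a1 was lower in every Lv-Piezo1 sample than in any Lv-Ctrl sample, at 188 ± 11.1 against 146 ± 5.75 TPM and a log2 fold change of -0.36 (SE 0.05, limma adjusted p = 2.0e-04), or -0.52 with median-ratio scaling. The Col18a1 to Col15a1 ratio was 21.6 ± 1.57 in Lv-Ctrl and 11.9 ± 0.467 in Lv-Piezo1, a log2 difference of -0.86 (exact permutation p = 0.029, adjusted 0.032). Collagen XVIII transcripts thus exceeded those of collagen XV in both groups, by a smaller factor in Lv-Piezo1.

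**Figure D3:**
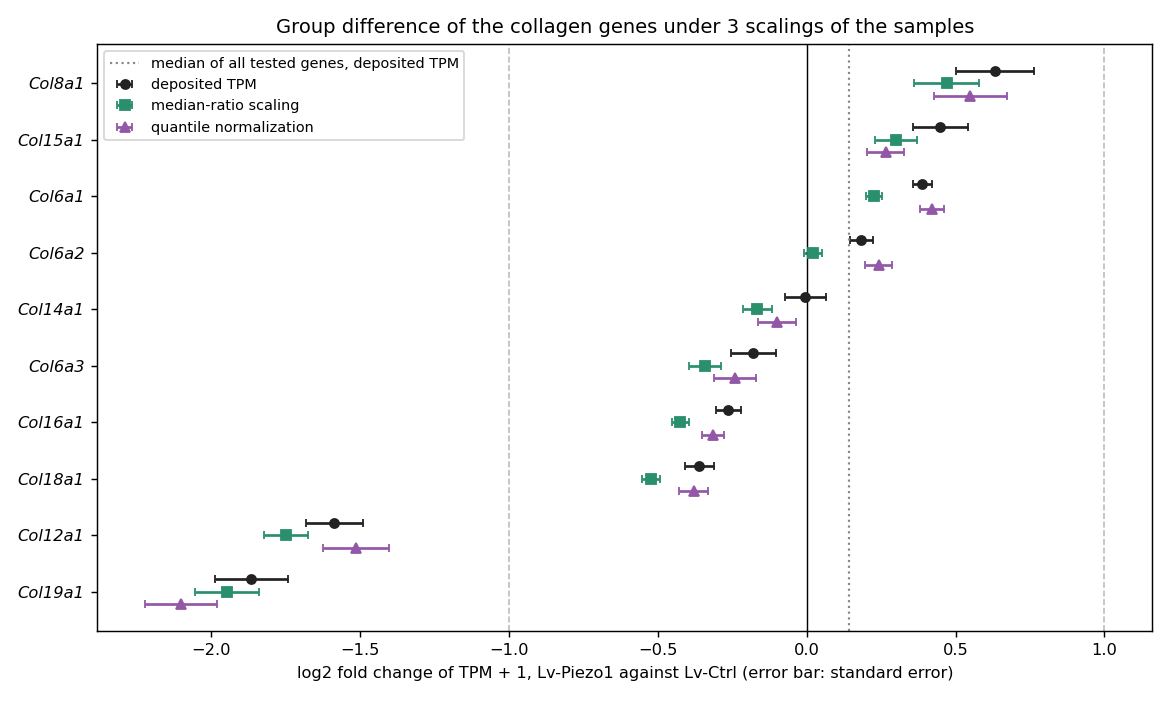
Log2 fold change of TPM + 1 for the 10 collagen genes, Lv-Piezo1 against Lv-Ctrl, from TPM as deposited, with median-ratio scaling and with quantile normalization. Error bars are SE, dashed lines mark the fold limit of 1 in either direction and the dotted line is the median of all tested genes (0.14). Only Col12a1 and Col19a1 lie past the fold limit under all 3 scalings, and Col14a1 lies closest to 0 as deposited.

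The scalings changed which smaller differences passed. With median-ratio scaling 3 of the 10 were higher and 6 were lower by adjusted p, since Col6a3 and Col14a1 joined the lower genes and Col6a2 was lost. With quantile normalization 4 were higher and 5 lower, with Col6a3 added. The median log2 fold change of all tested genes was -0.0046 with median-ratio scaling and -0.0036 with quantile normalization, as both align the samples by construction. The shares of all tested genes passing by adjusted p under these scalings were not computed, so these counts have no background beside them. Over all called genes, the share called higher was 64.1% as deposited, 52.3% with median-ratio scaling and 48.8% with quantile normalization.

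The order of levels differed between the groups. In Lv-Ctrl it ran Col12a1, Col6a2, Col6a1, Col18a1, Col16a1, Col6a3, Col14a1, Col8a1, Col15a1 and Col19a1, and of neighbouring genes only Col14a1 and Col8a1 overlapped in their sample values. In Lv-Piezo1 Col6a2 and Col6a1 came before Col12a1, and Col16a1, Col6a3 and Col8a1 overlapped in a chain. Among all 44 collagen genes in the matrix Col12a1 went from rank 3 to rank 6, Col6a2 from 5 to 4, Col6a1 from 6 to 5 and Col19a1 from 23 to 33.

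Seen as a pool, the 10 collagens took a smaller part of the collagen transcripts in Lv-Piezo1. They summed to 3388 ± 297 TPM in Lv-Ctrl and 2558 ± 105 TPM in Lv-Piezo1, while all 44 collagen genes summed to 10891 ± 732 and 15354 ± 511 TPM. The mean of Col12a1 fell from 1560 to 517 TPM, by more than the sum of the 10 fell. The sum of the 10 without Col12a1 was therefore not lower in Lv-Piezo1. The share of the 10 in all collagen TPM was 30.2 to 31.9% in Lv-Ctrl and 16.5 to 16.8% in Lv-Piezo1. This share also depends on the other collagens. Among them Col1a1 rose from a mean of 3282 to 5835 TPM and Col1a2 from 2316 to 3795 TPM. Within the 10, collagen VI made up 39.9 ± 2.07% in Lv-Ctrl and 62.3 ± 1.06% in Lv-Piezo1, and Col12a1 made up 45.9 ± 2.20% and 20.2 ± 0.711%.

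**Figure D4:**
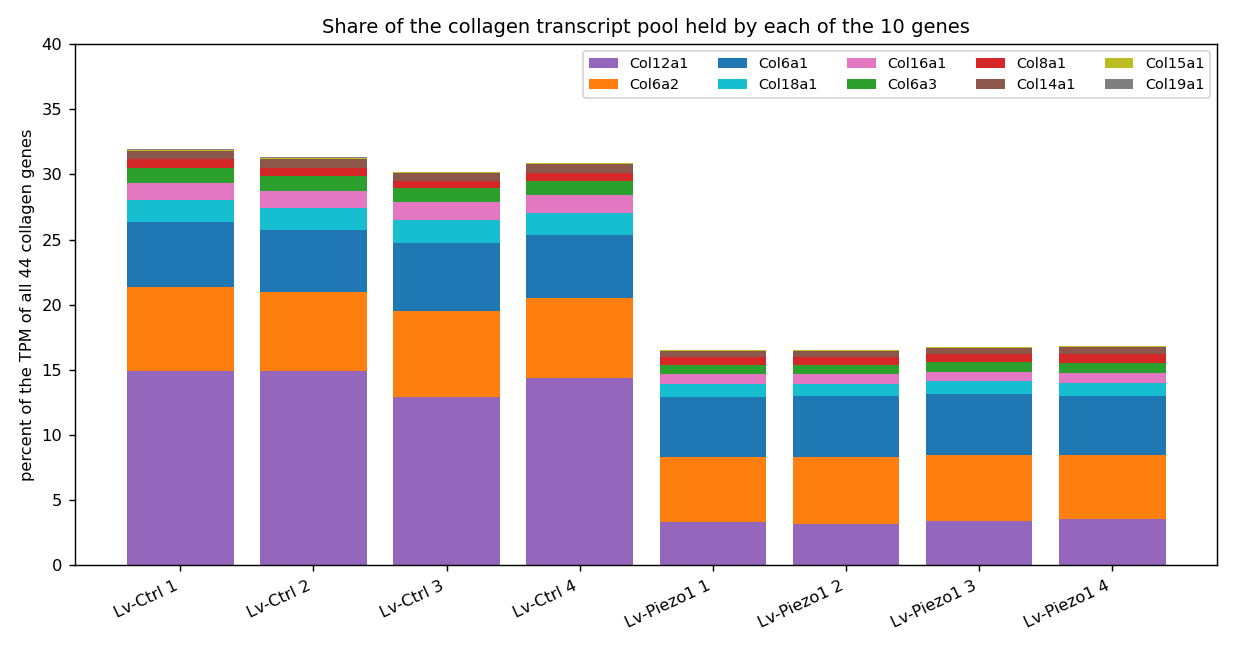
Share of all collagen TPM (44 collagen genes, in percent) taken by each of the 10 genes, as stacked bars from 0 with 1 bar per sample. The total of the 10 is 30.2 to 31.9% in the Lv-Ctrl samples and 16.5 to 16.8% in the Lv-Piezo1 samples.

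The other collagens moved differently from the 10. Of the 34 other collagen genes in the matrix 17 were tested, of which 3 were called higher and none lower at the fold limit. By adjusted p alone 15 were higher and none lower, with a median log2 fold change of 0.56. Over all tested genes 4.91% were called higher, and by adjusted p alone 41.9% were higher and 16.3% lower. None of the 4 tested collagens of related classes was called, although all 4 were higher by adjusted p, and of the 8 tested fibrillar chains 1 was called and 7 were higher by adjusted p. The fibrillar chain Col1a1, the main collagen of the AF, was 3282 ± 137 TPM in Lv-Ctrl and 5835 ± 103 TPM in Lv-Piezo1 (log2 fold change 0.83, limma adjusted p = 1.3e-07). Col1a2 and Col3a1 had log2 fold changes of 0.71 and 0.48. Col5a2, a chain of collagen V, which regulates fibril diameter, rose by 1.03, but had a log2 fold change of 0.87 with median-ratio scaling and 0.97 without Lv-Ctrl 3, below the limit in both cases.

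Per Col1a1 transcript, the 3 fibril-associated collagens compared were lower in Lv-Piezo1. Col1a1, the shared denominator, was itself higher there (log2 fold change 0.83), so these ratios are not independent of one another. By level alone Col12a1 and Col16a1 were also lower, whereas Col14a1 did not pass (log2 fold change -0.0052) and Col6a1 was higher (0.39). The Col12a1 to Col1a1 ratio was 0.474 ± 0.0447 in Lv-Ctrl and 0.0885 ± 0.00540 in Lv-Piezo1, 5.35-fold lower. The Col14a1 to Col1a1 ratio was 0.0217 ± 0.000991 and 0.0121 ± 0.000639, and the Col16a1 to Col1a1 ratio was 0.0439 ± 0.000757 and 0.0206 ± 0.000644. Col6a1 was 0.165 ± 0.00481 and 0.121 ± 0.00167 per Col1a1. Each of these 4 ratios had an exact permutation p of 0.029 (adjusted 0.032), whereas that of Col8a1 to Col1a1 was 0.0197 ± 0.00276 and 0.0172 ± 0.00171 and did not pass (exact permutation p = 0.20, adjusted 0.20).

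Receptors and binding partners of collagen VI changed in both directions. Of 19 listed genes 17 were tested, 4 were called higher and 3 lower, and the median log2 fold change was 0.54. Together 41.2% of the tested genes on this list were called, against 7.67% of all tested genes. Antxr1, a receptor that binds collagen VI, fell from 114 ± 12.1 to 54.8 ± 3.40 TPM (log2 fold change -1.03, limma adjusted p = 5.4e-06), while its relative Antxr2 had a log2 fold change of -0.02. The fall of Antxr1 was just past the limit and came to -0.99 without Lv-Ctrl 2.

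Vwa1, a pericellular matrix protein that binds collagen VI, rose from 9.0 ± 0.443 to 39.7 ± 1.74 TPM (log2 fold change 2.03, adjusted p = 5.1e-09). The matrilins, which link collagen VI filaments to other matrix, split: Matn2 fell from 12.1 ± 0.770 to 2.23 ± 0.125 TPM (log2 fold change -2.01) and Matn4 rose from 4.33 ± 0.479 to 12.4 ± 0.616 TPM (log2 fold change 1.33). The small proteoglycan decorin (Dcn), which binds collagen VI and collagen fibrils, fell from 1456 ± 69.3 to 519 ± 14.9 TPM (log2 fold change -1.49). Fibronectin (Fn1) rose from 1940 ± 242 to 4908 ± 297 TPM and the microfibril protein Mfap5 from 31.2 ± 2.61 to 114 ± 3.32 TPM, with log2 fold changes of 1.35 and 1.84.

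Partners of the fibril-associated collagens also split, with 4 called higher and 2 lower of 9 tested and a median log2 fold change of 0.68. Together 66.7% of those tested were called, against 7.67% of all tested genes. The count called lower was 3 without Lv-Ctrl 3, without Lv-Ctrl 4, without Lv-Piezo1 4, with a pseudocount of 0.1 and without mitochondrial genes, and both scalings gave 3 higher and 3 lower. Fmod, a small collagen-binding proteoglycan named here after its value was seen, lay just inside the fold limit at -0.99. Tenascin C (Tnc), a matrix glycoprotein bound by collagen XII, rose from 238 ± 24.5 to 520 ± 27.3 TPM (log2 fold change 1.12, or 0.96 with median-ratio scaling, below the limit). Postn rose from 199 ± 14.6 to 582 ± 26.4 TPM and Thbs4 from 56.4 ± 2.95 to 529 ± 15.9 TPM, with log2 fold changes of 1.54 and 3.21. Comp, a thrombospondin-family matrix protein, rose by 1.16 from 0.738 ± 0.216 to 2.86 ± 0.221 TPM, and its value was 0.93 with quantile normalization. Its Lv-Ctrl mean was below 1 TPM, so it passed the minimum only through the Lv-Piezo1 samples. Tgfbi, an adhesion protein that binds collagens, fell from 809 ± 21.1 to 297 ± 8.5 TPM (log2 fold change -1.45), and Dcn is on both lists. Col12a1 and Tnc thus had log2 fold changes of opposite sign.

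**Figure D5:**
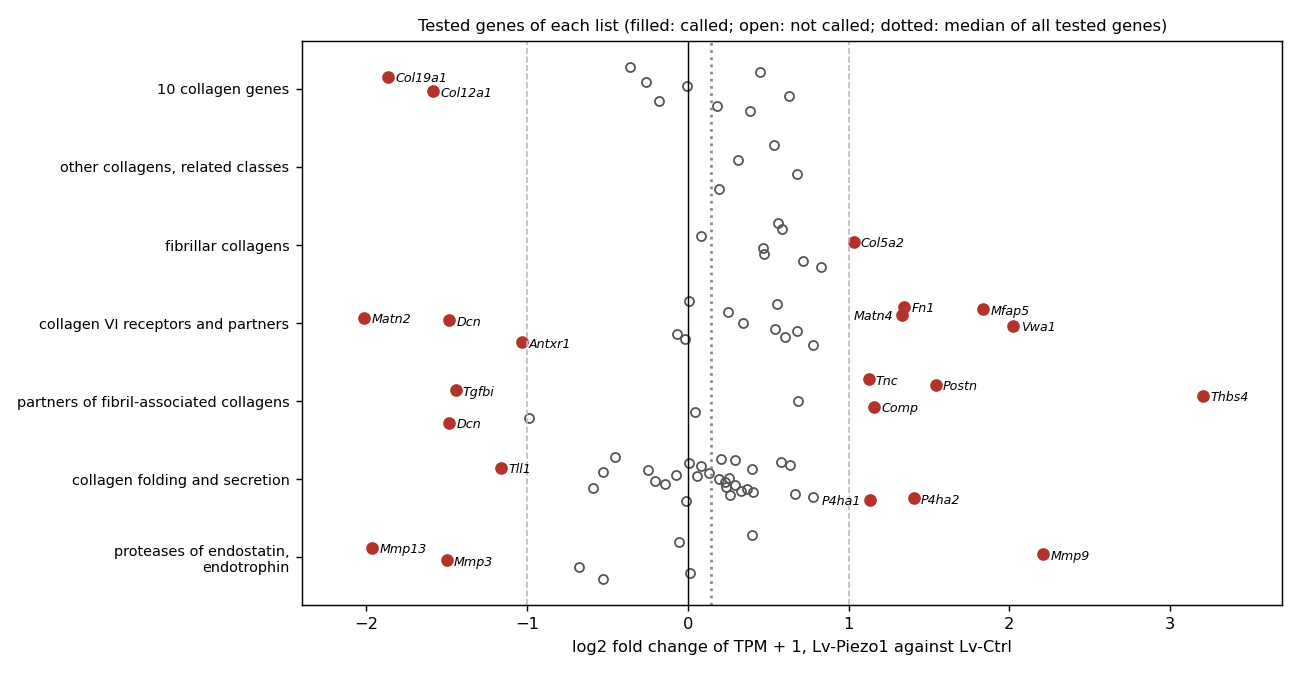
Log2 fold change of TPM + 1 of each tested gene in the 10 collagens and in 6 related lists, Lv-Piezo1 against Lv-Ctrl. Filled points are called genes, open points are not called, the dotted line is the median of all tested genes (0.14) and dashed lines are the fold limit. The tested genes of the other collagen lists lie above 0, whereas the 10 collagens lie on both sides of it.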

How the data were processed

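RNA-seq values of 8 samples (4 Lv-Ctrl, 4 Lv-Piezo1) were taken as deposited. Reads were cleaned, aligned with HISAT2 and assembled into transcripts with StringTie by the authors, and the deposited values are TPM per gene, rounded to 2 decimals. The study's methods speak of FPKM and the DESeq package, and the submitters' processing notes name mm10 and DESeq2, although the row identifiers are those of rat genes. The versions of HISAT2 and StringTie and the strand setting are not given in the sources used here. The group mean columns are the authors' means and were not tested. Sample columns were matched to samples by label.

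TPM keeps no depth, so no count model was used. Log2(TPM + 1) of the 13103 genes with a mean of at least 1 TPM was compared between groups with limma 3.58.1 in R 4.3.3, with a trend in the prior variance, no covariate, and Benjamini-Hochberg adjustment over all tested genes. Calls required an adjusted p under 0.05 and a log2 fold change of 1 or more in size. Ratios and single genes were tested by exact two-sided permutation of the samples. On simulated data with 13103 genes, 198 of 200 changed genes were recovered. The count is given here as a total, without a split by expression level or by size of change. It therefore does not show how well low genes or changes near the fold limit are recovered.

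Named genes are the 10 collagens, Piezo1, Col1a1, Col1a2, Col3a1, partner chains, and up to 4 called genes in each direction per related list. The collagens, lists and tests were chosen with earlier results of these data known. Alternatives were another pseudocount (0.1), no minimum and a minimum of 5 TPM, median-ratio scaling, quantile normalization, omission of mitochondrial genes, no trend, a replicate block, no fold limit, and leaving out each sample. Promoter windows and gene order are from RefSeq (GRCr8), matched by symbol. The strand of the library is unknown, so antisense or overlapping transcripts cannot be told apart from these genes.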

Additional observations from a re-analysis of the deposited data

Results flagged for a closer look

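In 84 groups of 4 values screened, 5 held a sample whose gap to its nearest neighbour was a large part of the group's range by Dixon's criterion, which chance gives in about 5% of groups. Among the collagens, Col16a1 in Lv-Piezo1 4 was 127.29 TPM where the other 3 Lv-Piezo1 samples were 117.29 to 117.73 TPM, and it stayed below all Lv-Ctrl samples. The Col14a1 to Col1a1 ratio in the same sample was 0.0131 where the others were 0.0117 to 0.0119.

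The other 3 values belong to Lv-Ctrl 3. Col3a1 was 167.93 TPM there and 193.51 to 198.06 TPM in the other Lv-Ctrl samples, Dcn was 1352.44 TPM against 1482.54 to 1497.57 TPM, and Postn was 177.45 TPM against 205.78 to 207.66 TPM. Lv-Ctrl 3 was the lowest of its group for 10 of the 10 collagens and for 48.8% of all tested genes. Lv-Piezo1 4 was the highest of its group for 9 of the 10 collagens and for 42.7% of all tested genes. Their part in these values was not tested.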

How the results depend on the processing

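For the 33 named genes, 515 of 526 log2 fold changes recomputed under an alternative kept their direction and their call, which includes the fold limit. By adjusted p alone Col6a2, Col6a3 and Col14a1 changed sides under median-ratio scaling. With a minimum mean of 5 TPM, 1 collagen was called lower, because Col19a1 was no longer tested, and 372 genes were called higher. Without the fold limit, 4 collagens were higher and 4 lower, and 5489 genes were higher and 2137 lower. The direction of Col14a1 changed when single samples were left out (log2 fold change -0.063 to 0.029). With a pseudocount of 0.1, 952 genes were called higher and 486 lower. With median-ratio scaling 514 genes were called higher and 468 lower, and with quantile normalization 463 and 485, against 644 and 361 as deposited. Col12a1 kept its call under every alternative run, and Col19a1 under every one that tested it.

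The replicate numbers did not pair the samples: deviations of same-numbered samples correlated between -0.06 and -0.01, and 0 of 4 Lv-Ctrl samples correlated best with the Lv-Piezo1 sample of the same number. That check concerns the numbering only and does not show whether the groups share isolations. With a replicate block, 0 collagens were called higher and 2 lower, Col12a1 was -1.59, and 644 genes were called higher and 360 lower. Without depth, the counting error of low values such as those of Col19a1 in Lv-Piezo1 is unknown.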

Other observations

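Genes for collagen folding, modification and secretion were called at a rate close to that of all tested genes. Of 31 tested, 2 were called higher and 1 lower, together 9.68% against 7.67% of all tested genes, with a median log2 fold change of 0.23. By adjusted p alone 18 were higher and 5 lower, together 74.2% against 58.2% of all tested genes. The prolyl 4-hydroxylase subunits P4ha1 and P4ha2, which modify collagen chains so that the helix is stable, rose from 132 ± 10.5 to 290 ± 16.6 TPM and from 47.9 ± 2.25 to 129 ± 3.62 TPM, with log2 fold changes of 1.14 (0.97 with median-ratio scaling, below the limit) and 1.41. Tll1, a tolloid protease that processes procollagens, fell from 19.8 ± 2.06 to 8.32 ± 1.03 TPM (log2 fold change -1.16).

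Proteases able to release endostatin from collagen XVIII or to cut collagen VI also split. Of 8 tested, 1 was called higher and 2 lower, together 37.5% against 7.67% of all tested genes, with a median log2 fold change of -0.29. Mmp9 rose from 4.51 ± 0.532 to 24.4 ± 1.31 TPM, while Mmp3 fell from 659 ± 17.9 to 232 ± 5.33 TPM and Mmp13 from 888 ± 57.3 to 227 ± 14.3 TPM, with log2 fold changes of 2.21, -1.50 and -1.96.

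Several of the collagen genes are neighbours in the RefSeq gene order of assembly GRCr8. Col6a1 and Col6a2 are adjacent on chromosome 20, and Col18a1 lies on the same chromosome with 2 genes, Slc19a1 and Pcbp3, between it and Col6a1. Col6a1 and Col6a2 were higher in Lv-Piezo1 by adjusted p, and Col18a1 was lower. Col19a1 is adjacent to Col9a1 on chromosome 9. Col9a1, a chain of the cartilage collagen IX, was listed at 0 in every Lv-Ctrl sample and at 0.03 to 0.07 TPM in the Lv-Piezo1 samples, and was not tested.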
